A study of Mus musculus with 6 samples.

Results

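Mast cell and basophil genes were followed through the RNA of erythroid precursor cells from mouse fetal liver, in embryos labelled -77-/- and in wild type embryos. The set was a list of 10 named genes matched by symbol, of which 7 had a row among the 19436 genes of the table used here: Cpa3, Mcpt8, Srgn, Hdc, Ms4a2, Il1rl1 and Mitf. Gzmb, Fcer1a and Prss34 had no row and were not analysed here. There were 3 -77-/- and 3 wild type libraries, all from C57BL/6 livers at E14.5. In the -77-/- embryos both alleles lack the -77 enhancer of Gata2, a gene for a blood progenitor transcription factor, and wild type embryos carry it. The sort had taken cells of medium CD71 (which imports transferrin) that lacked the red cell antigen Ter119. Nothing in the labels ties a library to a single embryo, so p-values speak only for the spread among the libraries, which may be technical. Each library held between 16516338 and 20468899 reads assigned to genes. Replicate numbers follow the order of the sample records and pair no libraries.

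Mast cells and basophils are rare granule-filled blood cells that bind IgE antibody through the receptor FceRI, built from an alpha chain (Fcer1a), a beta chain (Ms4a2) and a gamma chain shared with other receptors (Fcer1g). Their granules store proteases and histamine on serglycin, a proteoglycan, and both cell types respond to interleukin-33 through the receptor ST2, the product of Il1rl1. In mice, GATA2 is needed for both lineages and MITF for mast cells, and early progenitors of these lineages share some genes with erythroid and megakaryocyte progenitors.

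The genes did not move as a block. Il1rl1 and Hdc fell in -77-/-, Mitf rose, and Cpa3, Mcpt8, Srgn and Ms4a2 did not pass the test. That made 3 of 7 called, 1 higher and 2 lower, against 32.2% of the 15821 genes tested (16.9% higher and 15.2% lower), so the count itself was near the background. All 7 passed the filter on low values, a mean of at least 10 in the higher genotype, and all 7 also had a mean of at least 10 over the 6 libraries. The median log2 fold change of the 7 was 0.38, beside 0.10 for all genes tested. That median was the value of Cpa3 alone, a gene of few reads that did not pass and stood at 0.06 with DESeq2. It therefore shows no shift of the set. Libraries of the genotypes did not overlap for 5 of the 7 (Mcpt8, Srgn, Hdc, Il1rl1 and Mitf), against 46.5% of all genes tested. Values throughout are normalized reads, gene counts divided by the authors' size factor of the library. Log2 fold changes are -77-/- minus wild type means of log2(value + 1). The added 1 shrinks changes of low genes, but a library near 0 can carry them beyond the ratio of means. This was so for Il1rl1, Mcpt8 and Cpa3, where DESeq2 gave smaller changes. DESeq2 called 2 of the 7 higher and 2 lower (33.1% of its genes called, 17.3% higher and 15.8% lower), edgeR 1 and 2 (29.9%, with 15.1% and 14.9%), and the authors' deposited table had 4 of the 7 at an adjusted p under 0.05 (31.1%). The test was limma with Benjamini-Hochberg adjustment over all genes tested and a threshold of 0.05.

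**Figure D1:**
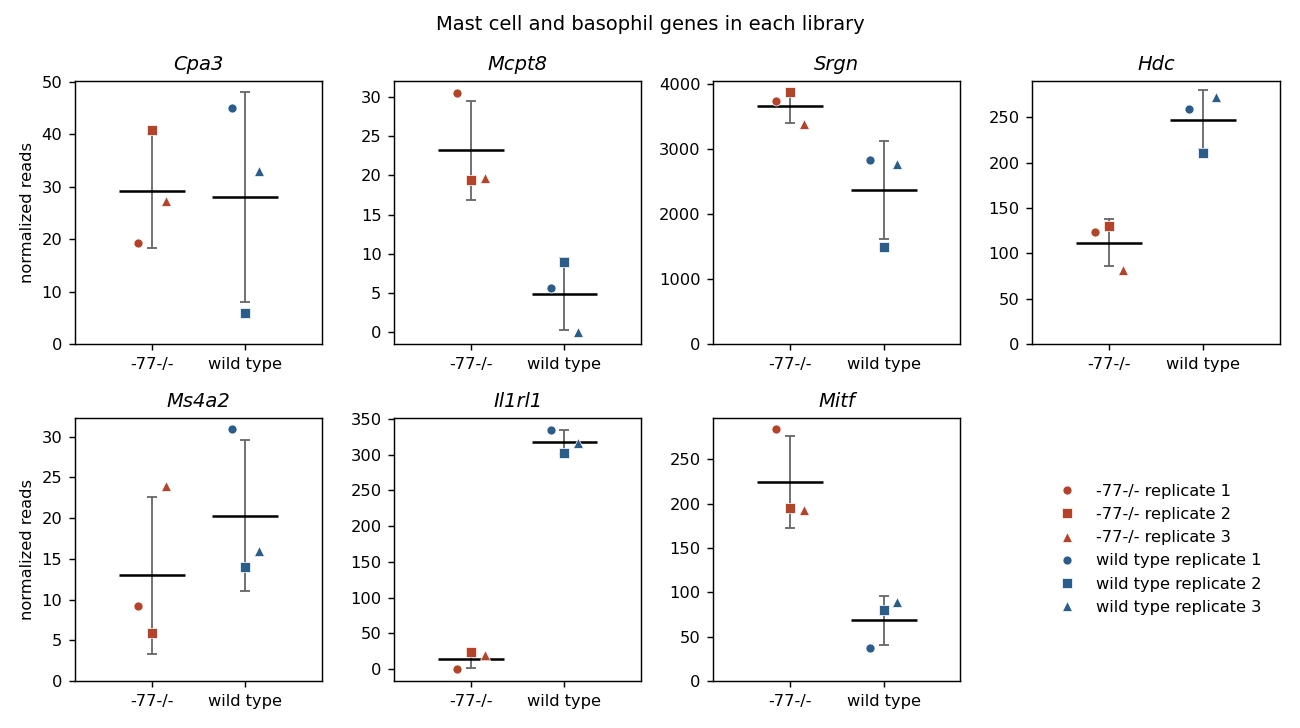
Normalized reads of each of the 7 genes, on an axis of its own, in 3 -77-/- and 3 wild type libraries; bars are the mean and the whiskers the SD. Il1rl1 lies at 0 to 23.3 in -77-/- and at 302 to 335 in wild type, while the points of Cpa3 and Ms4a2 overlap.

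The sequences before the transcription starts of the genes that passed are shown next, so that their GATA words, the letters that GATA factors recognise, can be compared. RefSeq (GRCm38.p6) gave 14 start windows for all 10 listed genes, each cut to the 250 bases before the start, and the words searched on both strands were AGATAA (and AGATAG) together with TGATAA (and TGATAG). Windows of the 3 genes that passed and that hold such a word follow, 5' to 3' along the gene, with the words (or their reverse complement) in capitals.
Il1rl1, start 1, plus strand, chr1:40429320-40429569: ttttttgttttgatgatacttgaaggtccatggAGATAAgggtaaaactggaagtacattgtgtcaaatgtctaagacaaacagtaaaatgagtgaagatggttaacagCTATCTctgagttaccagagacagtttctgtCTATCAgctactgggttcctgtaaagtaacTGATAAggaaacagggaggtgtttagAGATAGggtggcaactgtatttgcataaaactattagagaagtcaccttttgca
Il1rl1, start 2, plus strand, chr1:40439379-40439628: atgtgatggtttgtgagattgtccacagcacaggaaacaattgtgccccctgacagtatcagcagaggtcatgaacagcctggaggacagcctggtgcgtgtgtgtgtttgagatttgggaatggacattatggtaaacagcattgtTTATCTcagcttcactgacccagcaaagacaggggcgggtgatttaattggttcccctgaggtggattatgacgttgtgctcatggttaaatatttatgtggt
Hdc, minus strand, chr2:126618679-126618928: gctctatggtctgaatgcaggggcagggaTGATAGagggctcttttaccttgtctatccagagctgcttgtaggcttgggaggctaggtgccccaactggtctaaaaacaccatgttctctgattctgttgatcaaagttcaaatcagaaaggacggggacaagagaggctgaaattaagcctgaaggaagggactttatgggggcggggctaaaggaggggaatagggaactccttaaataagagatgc
Mitf, start 2, plus strand, chr6:97929567-97929816: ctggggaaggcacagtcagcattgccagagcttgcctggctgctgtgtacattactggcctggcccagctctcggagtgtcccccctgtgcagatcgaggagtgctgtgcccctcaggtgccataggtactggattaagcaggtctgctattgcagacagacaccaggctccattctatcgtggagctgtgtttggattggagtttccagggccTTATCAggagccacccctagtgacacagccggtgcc
Mitf, start 3, plus strand, chr6:97991533-97991782: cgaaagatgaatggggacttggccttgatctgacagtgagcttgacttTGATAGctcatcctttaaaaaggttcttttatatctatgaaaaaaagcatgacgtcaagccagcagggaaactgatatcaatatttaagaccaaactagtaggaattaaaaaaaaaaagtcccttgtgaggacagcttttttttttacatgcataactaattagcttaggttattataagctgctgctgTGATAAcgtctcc

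A GATA word was present in 9 of the 14 windows and in 7 of the 10 genes, while 26.5% of all 32851 windows of this length held one. The first start of Il1rl1 held 5 of these words, their first bases at 217, 141, 110, 80 and 54 bases before the start, and 14 of all windows (0.0426%) held 5 or more. Ms4a2 held 3, and 1.35% of all windows held 3 or more. Cpa3 had a single word 46 bases before its start. Mcpt8, Gzmb, both starts of Srgn and the first start of Mitf held none. The genes with GATA words included Il1rl1 and Hdc, which were lower, Mitf, which was higher, and Ms4a2 and Cpa3, which did not pass. A second motif, CATGTG on either strand, a form of the E-box that MITF binds, was present in 2 of the 14 windows, those of Prss34 and Fcer1a, and in 12.25% of all windows. These matches describe letters in a window and were not tested as binding sites. The deposited values are per gene and do not tell which start was used.

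Il1rl1 (ENSMUSG00000026069), which encodes the interleukin-33 receptor ST2 on mast cells, basophils and other cells, showed the largest difference of the 7. It had 0, 23.3 and 19.6 normalized reads in -77-/- replicates 1 to 3, against 335, 302 and 316 in wild type replicates 1 to 3. Every wild type library was more than 10 times above every -77-/- library, and the wild type values lay close together. The means were 14.3 ± 12.5 in -77-/- and 318 ± 16.4 in wild type (SD, n = 3 here and throughout), so that the mean was 22.2-fold lower in -77-/-. On the log2 scale this was -5.32, with an SE of 1.08 (limma adjusted p = 0.0032). It exceeds the ratio of means because -77-/- replicate 1 had no read, where a count of 0 allows up to 3 reads, or 3.05 normalized reads. With DESeq2 it was -4.46 and with edgeR -4.44. With a pseudocount of 0.1 the call ended (limma adjusted p = 0.0615), over a range of 5.4e-10 to 0.0615 for its alternatives.

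The 2 protein-coding genes on each side of Il1rl1 encode receptors of the same interleukin-1 family, and 3 of these 4 were higher in -77-/-, where Il1rl1 was lower. Among the neighbours of all 10 members, 9 of 20 tested were higher and 2 were lower. Of all genes tested, 16.9% were higher and 15.2% lower. Il1r1, the interleukin-1 receptor, had 70.2, 44.7 and 87.1 normalized reads in -77-/-, against 6.57, 4.99 and 18.2 in wild type, a log2 fold change of 2.79 (limma adjusted p = 0.0251). Il1rl2, the interleukin-36 receptor, had 95.6, 123 and 83.7 in -77-/-, against 15.9, 0 and 18.2 in wild type, a log2 fold change of 3.87 (limma adjusted p = 0.0132). Il18rap, an interleukin-18 receptor chain, had 643, 765 and 937 in -77-/-, against 262, 289 and 120 in wild type, a log2 fold change of 1.88 (limma adjusted p = 3.3e-04). In each of these 3 all -77-/- libraries were above all wild type libraries. Il18r1, the other interleukin-18 receptor chain, did not pass (log2 fold change 0.93, 95% interval -0.32 to 2.18). The calls of Il1r1 and Il1rl2 ended in 5 and 4 of 14 alternatives, that of Il18rap in none.

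**Figure D2:**
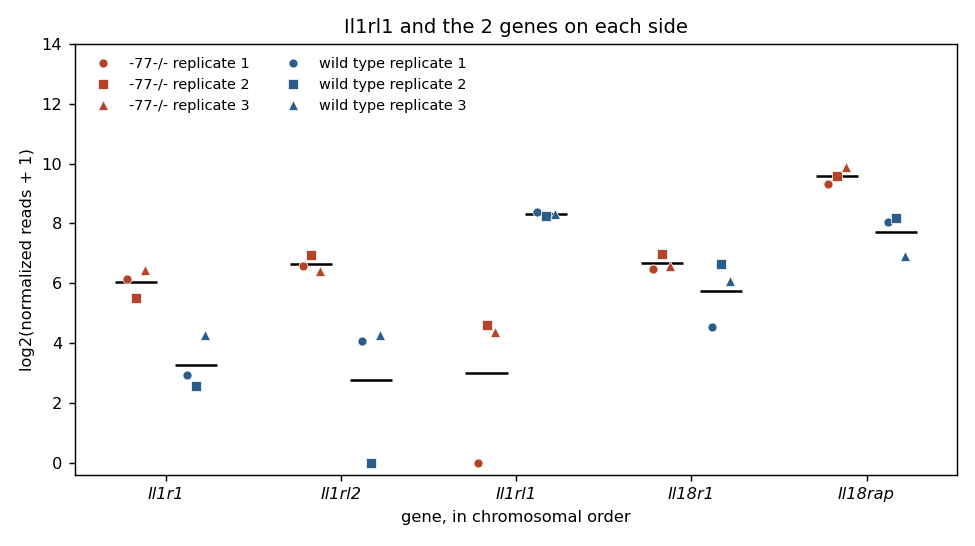
Log2(normalized reads + 1) of Il1rl1 and the 2 protein-coding genes on each side, in the order of the GRCm38 annotation, for 3 -77-/- and 3 wild type libraries; bars are means. The -77-/- points of Il1rl1 lie below its wild type points, and those of Il1r1, Il1rl2 and Il18rap lie above theirs.

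The ST2 partner chain and the signalling genes did not follow Il1rl1. Il1rap, the coreceptor that ST2 pairs with, had 155, 194 and 170 normalized reads in -77-/-, against 152, 198 and 98.0 in wild type, with overlap (log2 fold change 0.26, limma adjusted p = 0.607). Of 10 tested genes of the ST2 pathway 6 were higher, none was lower and 4 did not pass, with a median log2 fold change of 0.52. The shares over all genes tested were 16.9% higher and 15.2% lower. Myd88, the adaptor of the receptor, rose to 914 ± 109 in -77-/-, against 516 ± 87.1 in wild type, and the kinase Irak4 to 526 ± 49.8, against 202 ± 17.7. Irak1 and Tab2, a kinase and a binding protein further down, rose by 0.48 and 0.57 (log2), and Irak1 lost its call in 4 of 14 alternatives. Il33, the ligand, had 9 reads over the -77-/- libraries and none in wild type and was below the filter.

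Mitf (ENSMUSG00000035158), a transcription factor required for mast cell development in mice, was the member that rose. It had 285, 195 and 193 normalized reads in -77-/- replicates 1 to 3, against 36.6, 79.8 and 88.9 in wild type replicates 1 to 3. The genotypes did not overlap, and -77-/- replicate 1 stood above the other -77-/- libraries while wild type replicate 1 was the lowest. The mean was 224 ± 52.3 in -77-/- and 68.4 ± 27.9 in wild type, 3.28-fold higher in -77-/-, at 1.77 on the log2 scale with an SE of 0.44 (limma adjusted p = 0.0055). The call was present in each of its 14 alternatives, where the log2 fold change ran from 1.38 to 2.01.

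Its relatives in the MiT family of transcription factors moved the same way or did not pass. Tfec, a member found in macrophages, rose to 987 ± 81.7 in -77-/-, against 131 ± 40.7 in wild type (log2 fold change 2.94, limma adjusted p = 4.0e-07). Tfeb, a regulator of lysosomal genes, rose to 212 ± 51.5 in -77-/-, against 52.9 ± 8.04 in wild type (log2 fold change 1.96, limma adjusted p = 0.0021). Tfe3 had 615 ± 31.9 in -77-/- and 486 ± 23.9 in wild type and did not pass. Next to Mitf on the chromosome, Frmd4b and Foxp1 were also higher, by 4.07 and 1.74 on the log2 scale, and the other 2 flanking protein-coding genes had no row.

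Hdc (ENSMUSG00000027360), histidine decarboxylase, the enzyme that makes histamine, fell in -77-/-. Its normalized reads were 123, 130 and 82.0 in -77-/- replicates 1 to 3, against 259, 211 and 272 in wild type replicates 1 to 3. The highest -77-/- library lay well below the lowest wild type library. The means were 112 ± 26.1 in -77-/- and 247 ± 32.5 in wild type, 2.21-fold lower in -77-/- (log2 fold change -1.16, SE 0.34, limma adjusted p = 0.0154). The call ended without -77-/- replicate 3 (limma adjusted p = 0.0747, log2 fold change -0.95) and without wild type replicate 1 (0.0559), over a range of 0.0119 to 0.0747 for its alternatives. Slc18a2, which loads histamine into granules and was chosen after its values were seen, did not pass, with 126 ± 37.6 in -77-/- and 129 ± 25.3 in wild type. Of the protein-coding neighbours of Hdc, Atp8b4 rose by 1.76 on the log2 scale, and Slc27a2, Gabpb1 and Usp8 did not pass.

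In the wider set of amine and lipid mediator genes, 5 of 8 tested were higher, none was lower and 3 did not pass. The median log2 fold change was 2.49, and 16.9% of all genes tested were higher. Ptgs1 and Ptgs2, the cyclooxygenases that start prostaglandin synthesis, rose by 2.60 and 5.99 on the log2 scale. Alox5ap, the partner of 5-lipoxygenase in leukotriene synthesis, rose to 831 ± 52.8 in -77-/-, against 132 ± 36.4 in wild type. Pla2g4a, which releases arachidonic acid, rose by 0.90 on the log2 scale. Hdc moved the opposite way to the members of that list which changed. Those lipid enzymes are also made by monocytes and macrophages.

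The granule proteases were low in both genotypes. Cpa3 (ENSMUSG00000001865), carboxypeptidase A3 of mast cell granules, had 19.3, 40.8 and 27.3 normalized reads in -77-/- replicates 1 to 3, against 45.0, 5.99 and 33.0 in wild type replicates 1 to 3. The genotypes overlapped throughout, and wild type replicate 2, with 6 reads, was the lowest of all 6 libraries. Means were 29.2 in -77-/- and 28.0 in wild type, with SDs of 10.9 in -77-/- and 20 in wild type (log2 fold change 0.38, 95% interval -1.65 to 2.41, limma adjusted p = 0.792). Leaving out wild type replicate 2 turned it to -0.46 (limma adjusted p = 0.721). At 93 reads over the -77-/- libraries and 83 over the wild type libraries, a change within that interval was not detectable.

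Mcpt8 (ENSMUSG00000022157), a serine protease used as a basophil marker in mice, had 30.5, 19.4 and 19.6 normalized reads in -77-/- replicates 1 to 3, against 5.63, 8.98 and 0 in wild type replicates 1 to 3. All -77-/- libraries were above all wild type libraries, yet the gene rested on 73 reads in -77-/- and 15 in wild type. The mean was 23.2 ± 6.33 in -77-/- and 4.87 ± 4.54 in wild type, and the test was not passed (log2 fold change 2.55, 95% interval -0.13 to 5.23, limma adjusted p = 0.138). None of its alternatives passed, with adjusted p from 0.109 to 0.335. Mcpt8 belongs to a family of related proteases, and reads shared with a close copy could have been split in the authors' counting.

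Few other mast cell proteases had a row. Every gene with a row had at least 3 reads over the 6 libraries, so a gene without a row may have had fewer. Of 12 further chymases and tryptases, 10 had no row (Mcpt1, Mcpt2, Mcpt4, Cma1, Cma2, Tpsab1, Tpsb2, Tpsg1, Prss28 and Prss29), and Mcpt9 had 8 reads over the -77-/- libraries and none in wild type. The remaining one, Ctsg, which lies next to Mcpt8 and encodes cathepsin G of neutrophils and monocytes as well as mast cells, rose to 1916 ± 96.9 in -77-/-, against 793 ± 240 in wild type (log2 fold change 1.32, limma adjusted p = 2.5e-04). Of 10 genes for the other granzymes and perforin, 7 had no row. Gzma, a granzyme of cytotoxic lymphocytes, had 50 reads over the -77-/- libraries and none in wild type (limma adjusted p = 0.0411), at least 15.8-fold higher, but its call ended in 8 of 12 alternatives. It passed the filter on low values only through -77-/-, at a mean of 16.0. A filter on the mean over all 6 libraries left it untested.

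Srgn (ENSMUSG00000020077), serglycin, the proteoglycan that holds proteases and histamine in granules and is made by many blood cells, was far more abundant than the others. Per kilobase of annotated exon its mean was 1666 normalized reads in -77-/- and 1076 in wild type, whereas the other 6 genes ranged from 2.08 to 36.2 in -77-/- and from 4.88 to 46.1 in wild type. Its normalized reads were 3734, 3872 and 3372 in -77-/- replicates 1 to 3, against 2822, 1498 and 2766 in wild type replicates 1 to 3. The genotypes did not overlap, with wild type replicate 2 well below the other wild type libraries. The means were 3659 ± 258 in -77-/- and 2362 ± 749 in wild type, a ratio of 1.55, and the test was not passed (log2 fold change 0.69, SE 0.23, limma adjusted p = 0.0584). The test was passed with DESeq2 (adjusted p = 0.0074) and when wild type replicate 1, 2 or 3 was left out (limma adjusted p = 0.0212, 0.0364 and 0.0428). Those were 4 of its 14 alternatives, over which the adjusted p ran from 0.0074 to 0.201. Without -77-/- replicate 1, 2 or 3 the test was not passed (limma adjusted p = 0.123, 0.201 and 0.094). Leaving out wild type replicate 2 lowered the log2 fold change to 0.39. In the authors' deposited table Srgn had a log2 fold change of 0.63 and an adjusted p of 0.0065.

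Genes that build the sugar chains of serglycin and other proteoglycans were mixed, with 2 higher, 5 lower and 10 not passing of 17 tested. Their median log2 fold change was -0.03. Among all genes tested, 16.9% were higher and 15.2% lower. Ndst1, which modifies heparan sulfate, rose to 1174 ± 82.7 in -77-/-, against 234 ± 28.8 in wild type. Ndst2, its relative that mast cells need to make heparin in mice, was chosen after its values were seen. It fell to 326 ± 2.70 in -77-/-, against 598 ± 160 in wild type (log2 fold change -0.84, limma adjusted p = 0.0114), a call that ended without wild type replicate 2. Chst11, Hs6st1 and Chsy1, which sulfate or extend the chains, fell by 1.42, 1.28 and 0.67 on the log2 scale. Leaving out wild type replicate 2 reduced the lower count to 3.

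Ms4a2 (ENSMUSG00000024680), the beta chain that amplifies IgE receptor signals, was near the limit of detection. It had 9.15, 5.83 and 23.9 normalized reads in -77-/- replicates 1 to 3, against 30.96, 13.97 and 16.0 in wild type replicates 1 to 3. The genotypes overlapped, since -77-/- replicate 3 exceeded 2 of the wild type libraries. The means were 12.96 ± 9.62 in -77-/- and 20.3 ± 9.29 in wild type (log2 fold change -0.74, 95% interval -2.99 to 1.502, limma adjusted p = 0.620), on 43 reads in -77-/- and 61 in wild type. Its neighbours Ms4a6d and Ms4a3, which belong to the same membrane protein family, rose by 6.44 and 1.05 (log2).

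The shared gamma chain and 11 of the 18 signalling genes below the receptor were higher, while the beta chain did not pass. Fcer1g, which also serves Fc receptors of monocytes and macrophages and was chosen after its values were seen, had 585, 554 and 493 normalized reads in -77-/- replicates 1 to 3, against 57.2, 36.9 and 23.9 in wild type replicates 1 to 3 (log2 fold change 3.84, limma adjusted p = 2.1e-06). The genotypes did not overlap for Fcer1g, whereas they did for Ms4a2. Of 19 genes from the gamma chain to calcium entry, 12 were higher, 1 was lower and 6 did not pass. Their median log2 fold change was 1.68, and 16.9% of all genes tested were higher. The phospholipase Plcg2 rose to 5335 ± 39.2 in -77-/-, against 755 ± 172 in wild type, and the kinase Syk to 3333 ± 145, against 627 ± 46.2. The exchange factor Vav1 and the phosphatase Inpp5d rose by 1.92 and 1.09 (log2). The gene that fell, named after its values were seen, was Rabgef1, a negative regulator of mast cell activation in mice, at -1.19. Most of these genes act in many blood cells and do not mark mast cells or basophils.

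**Figure D3:**
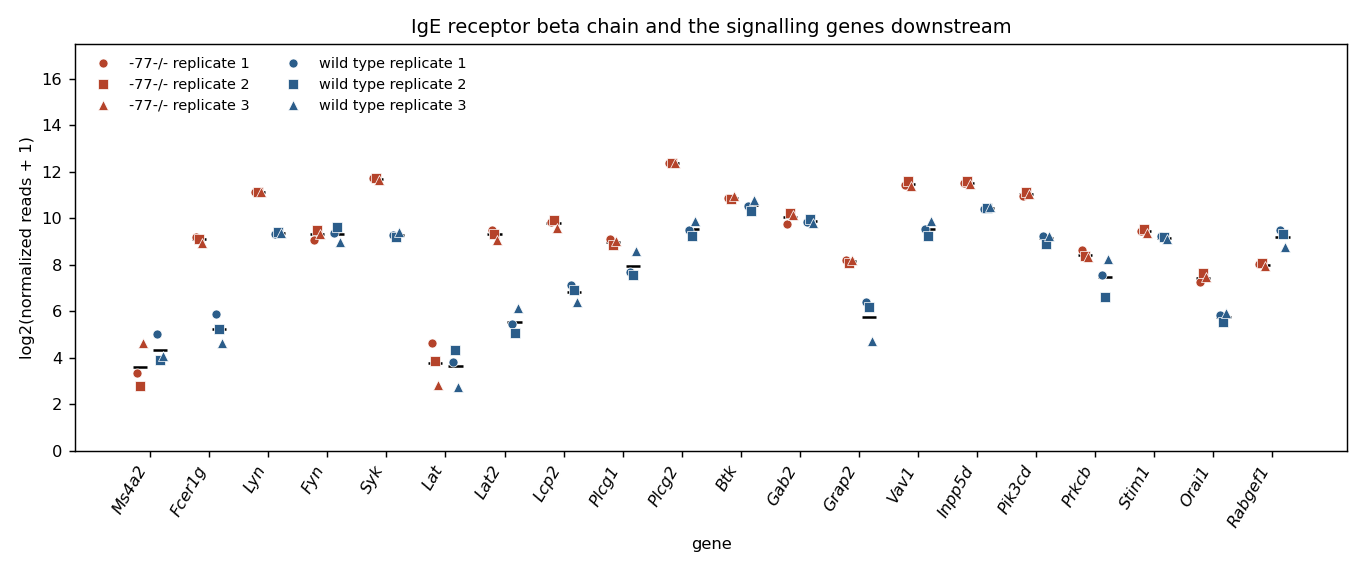
Log2(normalized reads + 1) of the IgE receptor beta chain Ms4a2 and of 19 genes from the gamma chain Fcer1g onward, in 3 -77-/- and 3 wild type libraries; bars are means. Ms4a2 lies at the low end with overlapping genotypes, while the -77-/- points of Fcer1g, Lyn, Syk, Lat2, Lcp2 and Plcg2 lie above the wild type points.

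Among other surface receptors of these lineages, 8 of 15 tested were higher, 2 were lower and 5 did not pass. Over all genes tested, 16.9% were higher and 15.2% lower. Kit, the stem cell factor receptor of mast cells and of erythroid progenitors, fell to 1939 ± 202 in -77-/-, against 4596 ± 318 in wild type. Csf2rb and Csf2rb2, the beta chains of the interleukin-3 and related receptors, and the activation marker Cd69 rose by 3.74, 1.94 and 3.26 on the log2 scale. Cd200r3, a receptor of mast cells and basophils in mice chosen after its values were seen, had 59.8 ± 45.6 in -77-/- and 55.3 ± 48.3 in wild type and did not pass. Enpp3, a mast cell and basophil surface enzyme also chosen after its values were seen, had 2 reads over the -77-/- libraries and 58 in wild type, a call that ended in 10 of 13 alternatives. Of cytokines that these cells secrete, Ccl3, Ccl4 and Tnf were higher by 4.92, 4.64 and 4.10 on the log2 scale, Osm did not pass, and Il4, Il5, Il6, Il9 and Csf2 had no row. With a pseudocount of 0.1, Ccl3 alone passed among them.

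Of 11 transcription factors that act in or against these lineages, 4 were higher, 5 lower and 2 did not pass. All genes tested had 16.9% higher and 15.2% lower. Gata2, the gene whose enhancer was removed, did not pass, at 44.9 ± 25.7 in -77-/- and 92.3 ± 33.3 in wild type (limma adjusted p = 0.183). Gata1, named after its values were seen, fell to 244 ± 225 in -77-/-, against 3012 ± 302 in wild type. Its log2 fold change was -4.01 (limma adjusted p = 0.0125), a call that ended without -77-/- replicate 3. Cebpa and Spi1, also named after their values were seen, rose by 3.79 and 3.57 on the log2 scale. Irf8, a factor of monocytes that is also needed for basophil progenitors in mice, and Runx1, a factor of progenitors, rose by 3.86 and 1.54. Tal1, a partner of GATA factors, and Ikzf1, a lymphoid and myeloid regulator, had log2 fold changes of -2.96 and -0.42.

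**Figure D4:**
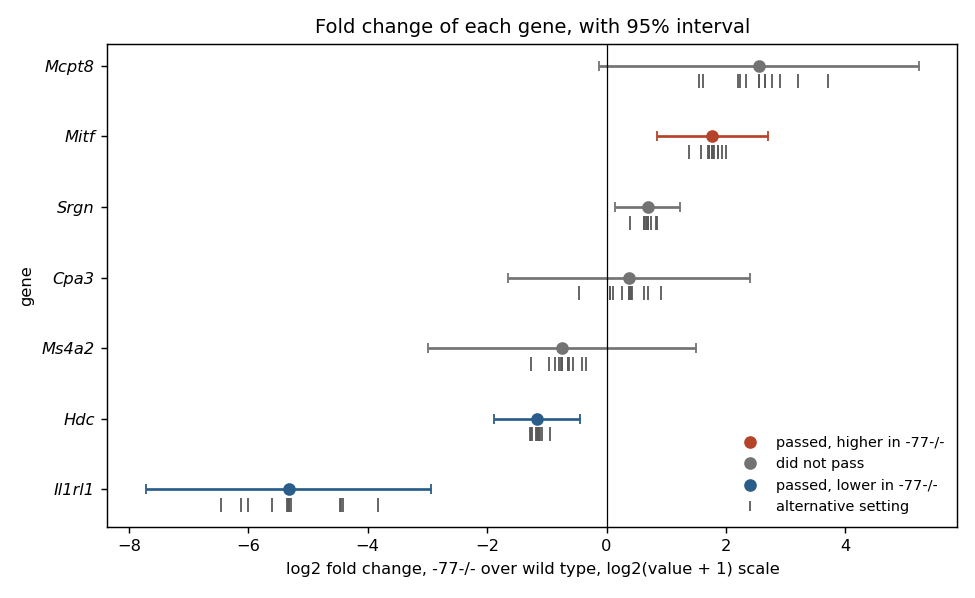
Log2 fold change of each of the 7 genes, -77-/- over wild type, with its 95% interval from limma; ticks below give the value under each alternative setting, where count models use their own log2 scale. The intervals of Mitf, Hdc and Il1rl1 exclude 0 with calls, that of Srgn excludes 0 without passing the adjusted threshold, and those of Mcpt8, Cpa3 and Ms4a2 include 0.

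Markers of several blood cell types differed between the genotypes. Beside the counts below, 16.9% of all genes tested were higher and 15.2% lower. In bulk samples, fewer cells of a type and less RNA per cell cannot be told apart. The labelled cell type is erythroid, and all 14 erythroid markers were lower in -77-/-, with a summed level of 3234 to 7761 normalized reads in -77-/- and 46995 to 51087 in wild type. Monocyte and macrophage markers, 11 of 12 higher, summed to 26899 to 34131 in -77-/- and 1386 to 2155 in wild type, in the same libraries where Mitf, Tfec and Fcer1g were higher. Eosinophil markers, 6 of 8 lower and 1 higher, summed to 300 to 442 in -77-/- and 1018 to 3059 in wild type, in the libraries where Il1rl1 was lower. That -77-/- sum included Il5ra, which was higher, at a mean of 231, and Siglec5, which did not pass, at 95.5. The call of Il5ra ended in 7 of 14 alternatives. So did that of Ear2, a lower gene whose genotypes overlapped. Prg2, the most abundant of the list, was at 13.6 ± 0.716 in -77-/-, against 962 ± 510 in wild type. The wild type eosinophil sum was 1906, 1018 and 3059 in replicates 1 to 3, an uneven set, while Il1rl1 was nearly level across them. Markers of innate lymphoid cells of type 2, which also carry ST2, were higher in 5 of 6 tested and summed to 1474 to 1778 in -77-/- and 106 to 180 in wild type, opposite to Il1rl1. Id2, which many blood cells express, made up most of that sum, and without it the range was 465 to 756 in -77-/- and 2.28 to 76.0 in wild type. Il7r was the largest of the rest, at 333 ± 104 in -77-/- and 32.2 ± 27.5 in wild type. The calls of Icos and Rora ended in 9 of 13 and 5 of 14 alternatives, those of Gata3, Il7r and Id2 in none. Neutrophil granule markers, 5 higher and 4 lower of 12, summed to 45009 to 48958 in -77-/- and 14418 to 24895 in wild type. Most of that sum was Mpo, myeloperoxidase, at 37033 to 40756 in -77-/- and 8529 to 14749 in wild type. Without Mpo the sums overlapped, at 7976 to 8201 in -77-/- and 5889 to 10147 in wild type. Megakaryocyte markers, 1 higher and 3 lower of 10, summed to 695 to 974 in -77-/- and 766 to 1215 in wild type. Natural killer and T cell markers, 1 higher of 5 tested, summed to 376 to 457 in -77-/- and 244 to 518 in wild type. The higher gene, Il2rb, lost its call in 10 of 13 alternatives. B lineage markers, 6 higher of 10, summed to 1995 to 3679 in -77-/- and 810 to 1006 in wild type. Ccr3 of eosinophils, Klrg1 of innate lymphoid cells, Ncr1 of natural killer cells, Gp6 of megakaryocytes and Mmp9 of neutrophils had no row. The part of any of these cell types in the changes of Il1rl1, Hdc or Mitf was not tested. Xist was at 41877 in wild type replicate 2 and at 28.5 to 63.2 in the other libraries, and that library was also the lowest for Cpa3 and Srgn. The same library had the lowest neutrophil sum (14418) and the lowest monocyte and macrophage sum (1386) of all libraries. How these go together was not tested. Without wild type replicate 2 the calls of Il1rl1, Hdc and Mitf were each still made (limma adjusted p = 0.0079, 0.0250 and 0.0079).

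**Figure D5:**
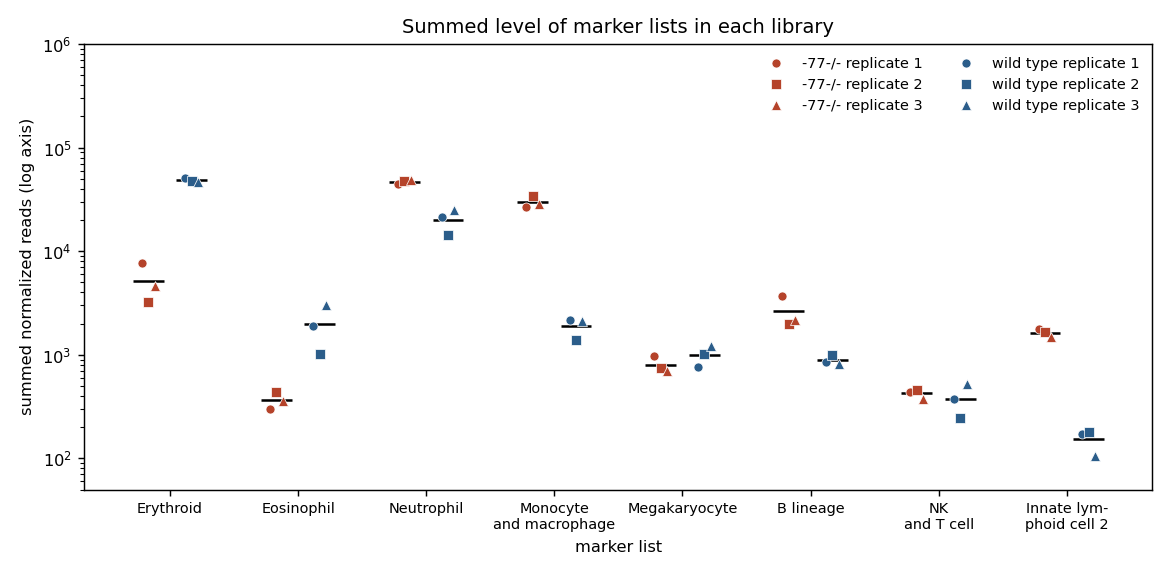
Summed normalized reads, on a log axis, of 8 lists of marker genes in 3 -77-/- and 3 wild type libraries; bars are means. Erythroid sums are 3234 to 7761 in -77-/- and 46995 to 51087 in wild type, and monocyte and macrophage sums are 26899 to 34131 in -77-/- and 1386 to 2155 in wild type.

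Across the 6 libraries, the genes whose log2 values followed Cpa3 most closely were Sfxn4, Tceal1 and Wbp2 (Pearson's r = 0.991, 0.990 and 0.989), and 17 tested genes had an r over 0.95. Those most like Srgn were Acsf2, Gm17417 and Lgr5 (r = 0.9986, 0.9984 and 0.9962), among 174 genes over 0.95. With 6 libraries that share a genotype split, such values are common and are given as a description. For Cpa3 and Srgn alike the likeness included the low value in wild type replicate 2, where Sfxn4, Gm17417 and Lgr5 had no read.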

How the data were processed

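RNA from the sorted cells was used at 10 ng per library and sequenced as single reads of 50 nt, per the labels' protocols and the series' design text. The tools DESeq2, RSEM 1.2.31, STAR 2.5 and Bowtie and the build mm9 come from the submitters' processing notes; roles, annotation and strand setting are not given in the sources used here. Deposited library columns hold a normalized signal, gene counts divided by the authors' size factor per library (0.878 to 1.17): within each library 100% of values were whole multiples of 1 step (tolerance 0.01 of a read). Dividing by the step gave recovered reads, 16516338 to 20468899 per library. If they came from RSEM they are rounded estimates, and a 0 need not mean no read. Log2 fold changes and p-values in the authors' deposited table served as a comparison. Of 19444 rows, 8 with cells moved sideways were left out. No pair of libraries was a duplicate (chi-square over degrees of freedom at least 17.2).

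limma 3.58.1 (R 4.3.3), with trend and robust empirical Bayes, was fitted to log2(value + 1) for genes with a mean of at least 10 in the higher genotype, two-sided. Alternatives were other pseudocounts and filters, leaving out each library, and edgeR 4.0.16 (quasi-likelihood, TMM), DESeq2 1.42.0 and limma-voom on recovered reads. edgeR called 4735 genes and limma 5091. The fit was also run on simulated counts with far fewer changed genes than were called here, which does not bear on these calls. Floors and intervals on counts cover counting error only; 3 reads were the floor, over the group for folds. Exon lengths and gene order came from GENCODE M21 (GRCm38), promoters from RefSeq.

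The members, 18 lists and tests were chosen with earlier results of these data known. Up to 4 called genes per list, those with the highest mean over the libraries, were named. The neighbour rule (2 protein-coding genes each side) followed the members' values. Neighbours and genes that did not pass were named after their values were seen, outside the rule of up to 4. So were Fcer1g, Lyn, Lat2, Lcp2, Rabgef1, Ndst2, Enpp3, Mpo, Id2, Gata1, Cebpa, Spi1 and Icos.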

Additional observations from a re-analysis of the deposited data

How the results depend on the processing

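The number of genes called across the table lay between 1984 and 2775 (higher) and between 1912 and 2333 (lower) when 1 library was left out, against 2681 and 2410. Of the 7 members, 1 was higher and 2 were lower; leaving out 1 library gave 1 to 2 higher and 1 to 2 lower. With DESeq2 2 were higher, Srgn being added, and with a pseudocount of 0.1, 1 was lower, since Il1rl1 no longer passed. Over the members' values and alternatives, 87 were on the same side of the threshold and in the same direction, 4 passed newly (all Srgn), 3 no longer passed (Hdc in 2, Il1rl1 in 1), and 1 reversed, Cpa3, which ran from -0.46 (without wild type replicate 2) to 0.90 (without wild type replicate 1) when 1 library was left out; the causes were not tested. A minimum mean of 50 left Cpa3, Mcpt8 and Ms4a2 untested. No paired analysis was possible because the labels give no replicate numbers that match libraries between the genotypes. Depth limits Cpa3, Mcpt8 and Ms4a2, at 15 to 93 reads per genotype.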
